A study of Mus musculus with 24 samples.

Results

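The 50 genes described here are axon guidance ligands and receptors, chosen by symbol from the deposited cRNA-seq gene table of mouse embryonic stem cells (ESCs). They are 9 EphA and 5 EphB receptors, 5 ephrin-A and 3 ephrin-B ligands, 7 class 3 semaphorins, 3 semaphorins of classes 5 and 6, 2 neuropilins, 3 A-type plexins, 2 netrins, 5 receptors of the DCC and UNC5 type, 3 slits and 3 ROBO receptors. Together they account for 50 of the 20633 transcripts in the table. Where a symbol had several transcripts (3 members), the one with the highest summed signal over the 12 libraries was used. Of the 50 members, 49 had at least 10 reads in at least 3 libraries and were tested among 16940 transcripts. Epha10 was not tested, because it held between 0 and 11.9 normalised reads in each library.

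The study compared the loss of Polycomb repressive complex 1 (PRC1) with the loss of its catalytic activity alone. Both lines derive from E14 ESCs and carry Rosa26::ERT2-Cre, a Cre recombinase that 4-hydroxytamoxifen (OHT) switches on. The PRC1CKO line (Ring1a-/-, Ring1b fl/fl, clone B9) lacks RING1A throughout and loses RING1B after OHT. The PRC1CPM line (clone 41) carries the inactivating substitutions I50A and D53K in Ring1a at all times, and OHT replaces wild-type Ring1b by the I53A and D56K form on both alleles. Each line is 1 clone. Cells were untreated or had 800 nM OHT for 72 h, with 3 replicates in each of the 4 conditions, which the study calls biological. *Drosophila* SG4 cells were added as a spike-in before RNA extraction, and the values are read counts scaled by that spike-in, called normalised reads below. The libraries held 14668159 to 27016156 reads on genes, and 1 read was worth 0.77 to 1.49 normalised reads. In bulk RNA, a change in the share of cells that express a gene and a change in RNA per cell cannot be told apart.

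The 3 replicates of a condition did not give the same total. The summed signal of the 50 members was 72769, 52143 and 47113 normalised reads in untreated PRC1CKO cells and 107027, 85429 and 94912 after OHT. In untreated PRC1CPM cells it was 70343, 55614 and 51062, and after OHT 114593, 76405 and 84534. The first replicate was the highest in each of the 4 conditions, but no untreated library of either line reached the lowest OHT-treated one of its line.

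Eph receptors are the largest family of receptor tyrosine kinases. They bind ephrins, which are themselves held on the membrane of a neighbouring cell, by a lipid anchor in the A class and by a transmembrane segment in the B class. Class 3 semaphorins are secreted and act mainly through neuropilins paired with A-type plexins, netrins act through DCC and the UNC5 receptors, and slits through ROBO receptors. All of these systems steer growing axons and also act in early embryos, in vessels and in cell sorting. Many of their genes have CpG island promoters, to which Polycomb complexes bind in ESCs.

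The windows around the transcription starts are shown first. A window of 300 bases (250 before and 50 after the start) was in the RefSeq promoter table for 40 of the 50 members, on GRCm38.p6 (mm10). In 33 of these windows the start is exactly that of the deposited transcript. It lies 913 bases from it for Robo2 and 469 for Efnb2, and within 100 bases for the rest. The upstream 250 bases of 4 members that rose in both lines (Ephb1, Sema3d, Nrp1 and Robo3) and of 2 Eph receptors that did not (Ephb4 and Epha4) are given below, 5′ to 3′ on the strand of the gene, with each CG dinucleotide in capitals. They were picked with their changes known, as examples of how far CG content differs within the set. Ephb1 lies at chr9:102354694-102354943 (minus strand), Sema3d at chr5:12382916-12383165 (plus), Nrp1 at chr8:128358823-128359072 (plus), Robo3 at chr9:37433176-37433425 (minus), Ephb4 at chr5:137349859-137350108 (plus) and Epha4 at chr1:77515089-77515338 (minus).
Ephb1: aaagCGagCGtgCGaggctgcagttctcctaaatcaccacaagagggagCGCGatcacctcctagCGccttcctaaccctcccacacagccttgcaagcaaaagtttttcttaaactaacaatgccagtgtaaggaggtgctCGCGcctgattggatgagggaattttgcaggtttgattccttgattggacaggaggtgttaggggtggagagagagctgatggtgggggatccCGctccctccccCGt
Sema3d: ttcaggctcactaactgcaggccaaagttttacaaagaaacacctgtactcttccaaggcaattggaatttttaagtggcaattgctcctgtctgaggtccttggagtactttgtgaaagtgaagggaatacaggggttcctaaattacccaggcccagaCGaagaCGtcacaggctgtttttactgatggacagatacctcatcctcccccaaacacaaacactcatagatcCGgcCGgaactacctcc
Nrp1: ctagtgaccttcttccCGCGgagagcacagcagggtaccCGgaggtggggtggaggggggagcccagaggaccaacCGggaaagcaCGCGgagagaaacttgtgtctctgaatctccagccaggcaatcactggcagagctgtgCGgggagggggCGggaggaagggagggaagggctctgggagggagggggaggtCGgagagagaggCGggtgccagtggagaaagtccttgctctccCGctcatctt
Robo3: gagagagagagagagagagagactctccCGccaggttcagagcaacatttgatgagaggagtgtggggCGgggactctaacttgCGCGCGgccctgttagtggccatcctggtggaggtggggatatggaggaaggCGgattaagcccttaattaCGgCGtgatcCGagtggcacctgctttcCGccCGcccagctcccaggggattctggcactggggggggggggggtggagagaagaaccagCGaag
Ephb4: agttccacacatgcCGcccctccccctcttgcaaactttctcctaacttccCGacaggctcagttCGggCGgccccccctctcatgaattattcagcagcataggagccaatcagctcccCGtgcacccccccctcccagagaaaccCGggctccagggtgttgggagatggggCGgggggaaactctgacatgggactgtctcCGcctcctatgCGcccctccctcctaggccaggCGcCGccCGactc
Epha4: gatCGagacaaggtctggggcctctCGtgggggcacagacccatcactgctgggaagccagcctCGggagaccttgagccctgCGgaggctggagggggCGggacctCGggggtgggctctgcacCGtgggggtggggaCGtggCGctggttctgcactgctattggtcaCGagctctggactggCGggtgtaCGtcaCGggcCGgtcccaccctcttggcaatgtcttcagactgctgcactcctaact
These 6 stretches hold 10, 4, 11, 12, 12 and 14 CG dinucleotides, in that order, so the example with the fewest, Sema3d, was among the members that rose.

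Over the whole 300-base windows, the 40 members had a median of 21.5 CG dinucleotides. It was 19 in the 10913 windows placed on the start of a tested transcript and 7 in all 32851 windows of the table. The lowest count among members was 2, for Sema3a, and the highest was 56, for Epha8. The median was 20.5 for the 22 members called higher in both lines, 22 for the 9 called in one line and 21.5 for the 8 called in neither. CG content thus overlapped between members that changed and members that did not, as the plot of CG counts shows. The motif CACGTG, which reads the same on both strands and contains a CG, was found in 3 of the 40 windows (Epha8, Sema3e and Sema6d), or 7.5%. It was in 9.29% of the windows placed on the start of a tested transcript and in 7.15% of all windows of this length.

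**Figure D1:**
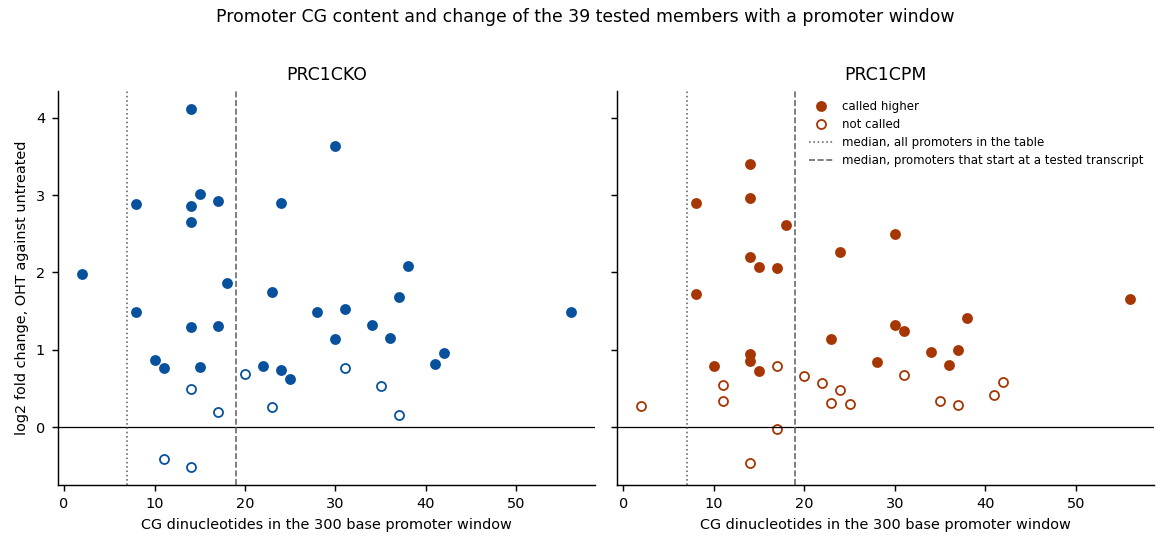
CG dinucleotides per 300-base promoter window (x axis, count) against the log2 fold change after OHT in PRC1CKO cells (left) and PRC1CPM cells (right, y axis) for the 39 members with a window and a test. Filled points were called higher, open points were not, and vertical lines mark the medians of all windows (7) and of those at tested transcripts (19). Called members span 2 (Sema3a) to 56 (Epha8) in PRC1CKO cells, and those not called lie within that range.

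Signal over the bodies of the targeted genes was examined before the members. Ring1, which encodes RING1A, held 313, 204 and 166 normalised reads in untreated PRC1CKO cells and 281, 251 and 229 after OHT, and 179, 182 and 125, then 161, 111 and 148 in PRC1CPM cells. Rnf2, which encodes RING1B, held 1756, 1436 and 1385 and after OHT 1489, 1565 and 1585 in PRC1CKO cells. The PRC1CPM libraries held 1850, 1659 and 1578 before and 1724, 1295 and 1513 after. Neither gene was called in either line, with log2 fold changes of 0.20 and -0.20 for Ring1 (limma adjusted p = 0.750 and 0.816) and 0.027 and -0.17 for Rnf2 (0.963 and 0.763). These counts cover whole gene bodies, including parts outside the engineered exons, so they neither test the labels nor measure the proteins.

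After OHT, 34 of the 49 tested members were higher in PRC1CKO cells and 27 in PRC1CPM cells, and none was lower in either line. Without Sema3g, which reached 10 reads in 3 libraries through OHT-treated cells, the counts were 33 and 26 of 48. Called means a Benjamini-Hochberg adjusted p under 0.05 over all 16940 transcripts (limma) with a change above 1.5-fold. The fit had no replicate block unless one is named. Among all tested transcripts 16.5% were called higher and 3.09% lower in PRC1CKO cells, and 13.1% and 1.4% in PRC1CPM cells. Adding replicate number as a block gave 37 and 31 members higher and none lower, where 20.3% and 17.9% of all transcripts were higher. Without the gDNA-seq correction of the spike-in, more members were higher in PRC1CPM than in PRC1CKO cells. So were more of all transcripts (20.2% and 12.6%). With the correction, members had a median log2 fold change of 1.14 in PRC1CKO and 0.81 in PRC1CPM cells. All tested transcripts had medians of 0.12 and 0.10. Fold changes above 0 were seen for 46 of 49 members in PRC1CKO cells (61.1% of all transcripts) and 47 in PRC1CPM cells (62.0%). The 3 OHT-treated libraries lay wholly above the 3 untreated ones for 33 members in PRC1CKO cells (22.1% of all transcripts) and 27 in PRC1CPM cells (18.7%), and wholly below them for no member (8.52% and 3.7% of all transcripts).

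Receptors and ligands both contributed. Of the 26 tested receptors, 21 were higher in PRC1CKO and 18 in PRC1CPM cells, with median log2 fold changes of 1.40 and 0.96. Of the 23 ligands, 13 and 9 were higher, with medians of 0.80 and 0.66. By ligand and receptor system, the Eph receptors had 10 and 9 of 13 called higher while their ephrin ligands had 3 and 2 of 8. Semaphorins had 6 and 4 of 10, and neuropilins and A-type plexins 4 and 3 of 5. Both lines had 1 of 2 netrins and 4 of 5 DCC and UNC5 receptors called higher. For slits the counts were 3 and 2 of 3, and the same numbers were found for ROBO receptors. These counts are without a replicate block. With replicate number as a block, Efna1, Efna2, Sema3f and Robo2 were also called higher in PRC1CPM cells, and Efna1, Efna2 and Sema6a in PRC1CKO cells. The differences between ligands and receptors are descriptions of these lists, and were not tested.

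**Figure D2:**
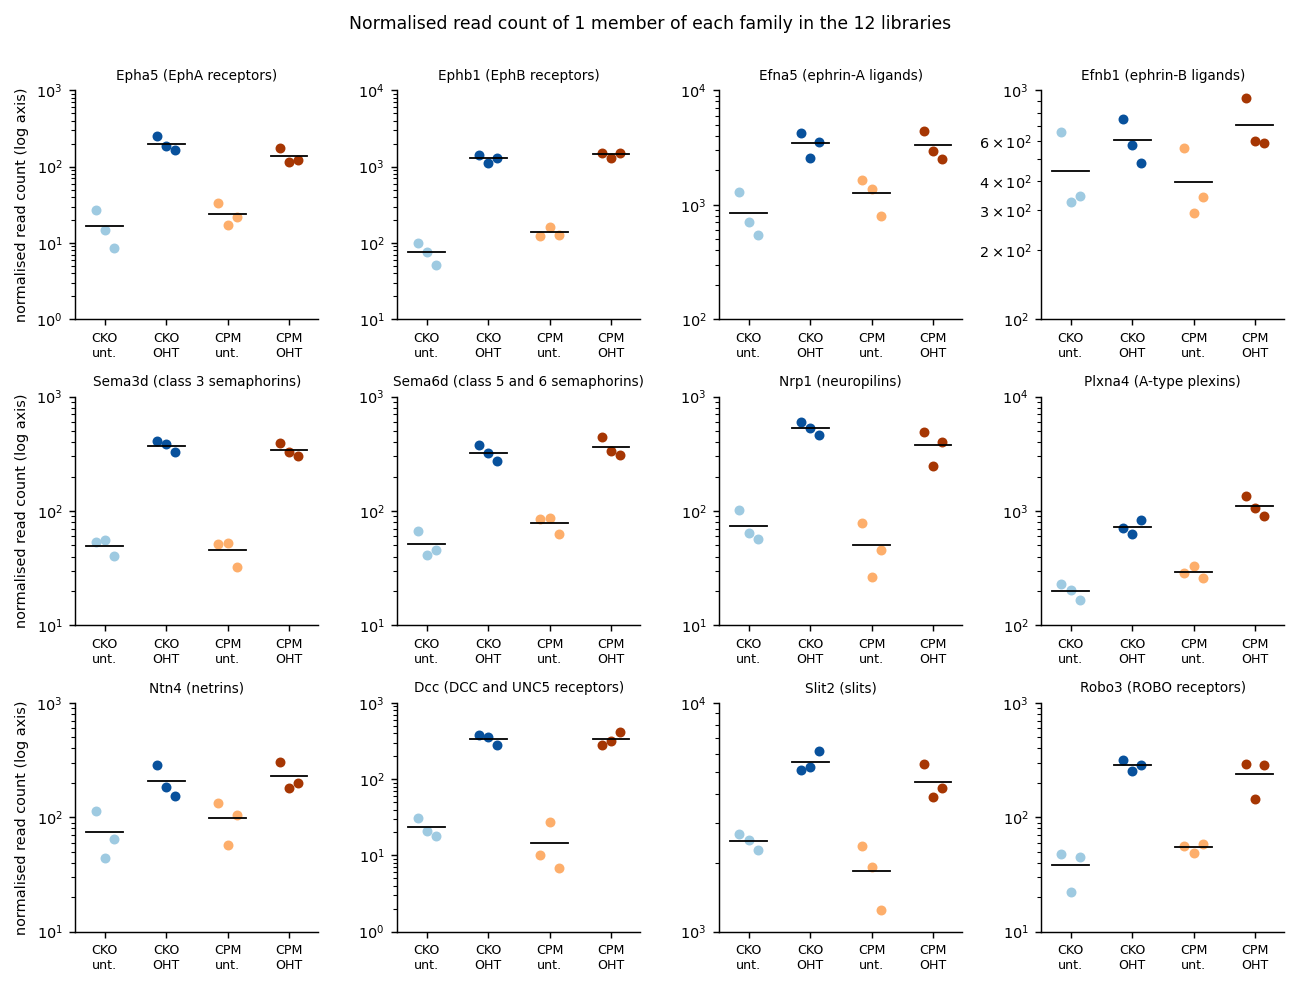
Normalised reads (log axis) of 1 member of each family in the 12 libraries, with a point for each replicate and a bar at the mean of each condition. The member shown has the largest called fold change of its family in PRC1CKO cells, or in PRC1CPM cells for the ephrin-B ligands (Efnb1), and most panels show the OHT-treated libraries of both lines wholly above the untreated ones.

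Among EphA receptors, 7 of 8 tested members were higher in both lines (Epha1, Epha2, Epha3, Epha5, Epha6, Epha7 and Epha8) and Epha4 was called in neither. Epha5 (chr5:84054765-84417382, minus strand, mm10), a receptor best known from the topographic map of retinal axons, changed most in PRC1CKO cells. It held 26.8, 14.6 and 8.46 normalised reads in untreated PRC1CKO cells and 252, 184 and 167 after OHT. In PRC1CPM cells the values were 33.2, 17 and 21.7 before and 176, 115 and 123 after. The treated libraries lay above the untreated ones in both lines with a wide gap. Coordinates here and below are those of the whole gene body, exons and introns, over which reads were counted. The log2 fold change was 3.63 ± 0.40 (SE) in PRC1CKO (12.4-fold, limma adjusted p = 2.00e-10) and 2.50 ± 0.40 in PRC1CPM cells (5.67-fold, adjusted p = 3.55e-06). Epha6, Epha3 and Epha8 had 3.01 and 2.07, 1.86 and 2.62, and 1.48 and 1.65 in the 2 lines. The Epha3 values, the larger of which exceeds that of Epha5 in PRC1CPM cells, rest on 4 to 22 reads per untreated library.

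The most abundant member of the family per kb, Epha2, already had high signal before treatment. It held 7415, 5235 and 3480 normalised reads in untreated PRC1CKO cells and 11808, 7977 and 8753 after OHT. PRC1CPM cells had 6038, 4426 and 4407 before and 12140, 6258 and 8016 after. Each treated library was above each untreated one of its line, though only by a small margin. The log2 fold change was 0.87 ± 0.23 in PRC1CKO (limma adjusted p = 0.00346) and 0.79 ± 0.23 in PRC1CPM cells (0.0115). Without the third untreated PRC1CKO replicate the first value was 0.59 (0.114), and without the first OHT-treated PRC1CPM replicate the second was 0.53 (0.179). Epha1 and Epha7 rose by 1.30 and 1.49 on the log2 scale in PRC1CKO and by 0.95 and 0.85 in PRC1CPM cells, where both also lost the call without the third untreated or the first OHT-treated PRC1CPM replicate (0.79 and 0.71 for Epha1, 0.73 and 0.72 for Epha7). The PRC1CPM call of Epha1 was also lost with DESeq2 (0.92, 0.189) and without the filter on low counts (0.95, 0.0509). Epha2 in PRC1CPM cells lost it likewise without the third untreated replicate (0.71, adjusted p = 0.0652).

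Epha4, which can bind ephrins of both classes, stood apart. Its signal was 11960, 9593 and 10799 in untreated and 12079, 11006 and 14194 in OHT-treated PRC1CKO cells. In PRC1CPM cells the libraries held 8896, 7036 and 7123 before and 9760, 5658 and 7672 after. Treated and untreated libraries overlapped in both lines, while the PRC1CPM libraries lay below the PRC1CKO libraries of the same treatment. The 95% interval of the log2 fold change after OHT ran from -0.20 to 0.61 in PRC1CKO and from -0.43 to 0.38 in PRC1CPM cells.

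EphB receptors ranged from the largest change in PRC1CKO cells of any member to the lowest. Ephb1 (chr9:101922128-102354693, minus strand), a receptor that acts in the crossing of retinal axons, held 99.8, 75.4 and 50.7 normalised reads in untreated PRC1CKO cells and 1420, 1115 and 1307 after OHT. PRC1CPM cells went from 123, 162 and 126 to 1529, 1303 and 1527. No library of one treatment came near those of the other. The change was 4.12 ± 0.26 on the log2 scale in PRC1CKO cells (17.3-fold, limma adjusted p = 7.56e-18) and 3.40 ± 0.26 in PRC1CPM cells (10.6-fold, 9.60e-14). Ephb6, whose kinase is inactive, rose by 1.32 and 0.98, the second of which fell short without the third untreated (0.82, adjusted p = 0.107) or the first OHT-treated PRC1CPM replicate (0.76, 0.105). Ephb2 was called in PRC1CKO cells alone (0.73, limma adjusted p = 0.0116, and 0.48, 0.163). That call was lost without the third untreated (0.61, 0.108) or the first OHT-treated PRC1CKO replicate (0.62, 0.0969). Without the gDNA-seq correction Ephb2 was called in PRC1CPM and not in PRC1CKO cells.

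The EphB receptors with the highest signal per kb were not called. Ephb3 held 2730, 1792 and 2000 normalised reads in untreated PRC1CKO cells and 2719, 2512 and 2460 after OHT, and in PRC1CPM cells 2367, 1550 and 1701 before and 2760, 1918 and 2284 after. Its libraries overlapped in both lines, with intervals from -0.18 to 0.70 and from -0.12 to 0.75. Ephb4, the receptor of ephrin-B2 in vessels, had 2407, 1404 and 1599 before and 1555, 994 and 1211 after OHT in PRC1CKO cells. The PRC1CPM values were 2523, 1343 and 1925, then 1880, 963 and 1376. The groups overlapped, and the log2 fold changes of -0.51 (-1.01 to -0.014, limma adjusted p = 0.163) and -0.46 (-0.96 to 0.034, 0.268) were the lowest of all members in the 2 lines. Leaving out the second untreated PRC1CPM replicate gave -0.70 (adjusted p = 0.0482) for Ephb4 in PRC1CPM cells, which would be a call, and with TMM scaling it was called lower in PRC1CKO cells (-0.63, limma adjusted p = 0.00345).

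Ephrin-A ligands had 1 member with a large change. Efna5 (chr17:62602957-62881317, minus strand), a ligand of most EphA receptors, held 1297, 707 and 544 normalised reads in untreated PRC1CKO cells and 4257, 2538 and 3527 after OHT. In PRC1CPM cells it went from 1637, 1363 and 790 to 4426, 2950 and 2516. Treated libraries were above untreated ones throughout. Its log2 fold change was 2.08 ± 0.26 (limma adjusted p = 7.04e-09) and 1.41 ± 0.26 (5.33e-05). The most abundant per kb, Efna4, held 483, 342 and 274 before and 680, 595 and 556 after OHT in PRC1CKO cells, and 432, 248 and 233 before and 569, 360 and 381 after in PRC1CPM cells. Its groups were separate in PRC1CKO and overlapped in PRC1CPM cells, with changes of 0.77 (adjusted p = 0.0365) and 0.55 (0.218).

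Efna3 had similar values to its neighbour Efna4, with 0.80 (limma adjusted p = 0.0401) and 0.58 (0.217). The genes lie next to each other on chromosome 3, with Efna1 near them. The PRC1CKO calls of Efna3 and Efna4 were kept without untreated replicate 1 and lost without any other of the 6 PRC1CKO libraries, with adjusted p up to 0.182 for Efna3 and 0.255 for Efna4 without the third untreated replicate. Both calls were also lost without the filter on low counts and without the gDNA-seq correction. Without that correction Efna3 and Efna4 were called in PRC1CPM cells instead. Efna1 (0.69 and 0.66) and Efna2 (0.76 and 0.67) were not called in either line. With replicate number as a block, both were called in PRC1CPM cells (limma adjusted p = 0.0076 for Efna1 and 0.00425 for Efna2). Both were then called in PRC1CKO cells too (0.00393 and 7.75e-04). Efna2 was also called in PRC1CKO cells with DESeq2 (0.74, 0.0468), TMM (0.64, 0.00407) and mouse read totals (0.69, 0.00338). Without the first untreated PRC1CKO replicate both were called in that line (1.06, 0.0202 for Efna1 and 0.98, 0.0128 for Efna2), as was Efna1 in PRC1CPM cells without the first untreated PRC1CPM replicate (1.08, 0.0187).

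Ephrin-B ligands had the lowest median change of the families in PRC1CKO cells, 0.50 on the log2 scale, and 0.47 in PRC1CPM cells. Efnb1 (chrX:99136061-99149022, plus strand) is a ligand that also signals backwards into the cell that carries it. It held 658, 325 and 347 normalised reads before and 753, 579 and 482 after OHT in PRC1CKO cells, where the groups overlapped. In PRC1CPM cells, with 561, 292 and 342 before and 930, 603 and 592 after, they did not. The log2 fold changes were 0.50 ± 0.28 (limma adjusted p = 0.241) and 0.85 ± 0.28 (0.0260), which made Efnb1 the 1 member called in PRC1CPM cells alone. The call was lost without the second (0.66, 0.127) or the third untreated replicate (0.77, 0.125) or the first OHT-treated one (0.64, 0.193). It was also lost without the filter on low counts. Without the first untreated PRC1CKO replicate Efnb1 was called in PRC1CKO cells too (0.82, 0.0198). The most abundant per kb, Efnb3, held 381, 349 and 298 before and 309, 297 and 263 after in PRC1CKO cells. PRC1CPM cells had 322, 310 and 198 before and 469, 333 and 341 after. Efnb3 values of -0.24 (-0.77 to 0.30) and 0.47 (-0.06 to 1.01) and Efnb2 values of 0.53 and 0.34 were not called, though Efnb2 was called in PRC1CKO cells without the first untreated replicate (0.87, 0.00369).

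Class 3 semaphorins split. Sema3d was higher in both lines, as was Sema3g with few reads, Sema3a and Sema3c in PRC1CKO cells alone, and Sema3b, Sema3e and Sema3f in neither. Sema3d (chr5:12383166-12588943, plus strand), a secreted guidance cue, held 53.6, 55.4 and 40.6 normalised reads in untreated PRC1CKO cells and 406, 385 and 330 after OHT. PRC1CPM cells had nearly the same, 51.1, 52.8 and 32.5 before and 396, 326 and 300 after. All 6 treated libraries were far above the 6 untreated ones. The change was 2.89 ± 0.31 in PRC1CKO (7.4-fold, limma adjusted p = 1.34e-10) and 2.90 ± 0.31 in PRC1CPM cells (7.46-fold, 4.39e-10).

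Sema3a, the best studied repellent of the class, had few reads. It held 20.9, 12.3 and 3.38 normalised reads in untreated PRC1CKO cells and 43.4, 40.7 and 41.0 after OHT. In PRC1CPM cells the values were 25.6, 21.7 and 16.3 before and 25.1, 24.7 and 26.3 after. The PRC1CKO groups were separate, while the PRC1CPM groups overlapped and the treated ones lay below all treated PRC1CKO libraries. The log2 fold changes were 1.98 ± 0.50 (limma adjusted p = 0.00215) and 0.27 ± 0.50 (0.867). Without the third untreated PRC1CKO replicate, in which 4 reads were counted, the first was 1.32 (0.0718). Sema3c (0.96, limma adjusted p = 0.0173, and 0.58, 0.255) lost its PRC1CKO call without that replicate (0.59, 0.290) or the first OHT-treated one (0.84, 0.0766). That call was also lost with DESeq2 (0.85, 0.0537), without the filter on low counts and without the gDNA-seq correction. In PRC1CPM cells Sema3c was called without the gDNA-seq correction and without the second untreated PRC1CPM replicate (0.88, 0.0367).

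Sema3g passed the filter on low counts through its OHT-treated libraries, having at most 11 reads in any untreated library. Its changes of 1.49 (adjusted p = 0.0485) and 1.72 (0.0243) held in 4 and 8 of the 12 fits that left out 1 library, and fell short by the most without the first OHT-treated replicate of each line (1.17, limma adjusted p = 0.296, and 1.47, 0.154). Sema3f, the most abundant of the class per kb, held 712, 356 and 479 before and 887, 604 and 721 after OHT in PRC1CKO cells, and 627, 270 and 460 before and 1016, 516 and 726 after in PRC1CPM cells. These groups overlapped, with changes of 0.56 (0.184) and 0.76 (0.0569), the first of which was a call without the first untreated PRC1CKO replicate (0.82, 0.0285). In PRC1CPM cells Sema3f was called with replicate number as a block (adjusted p = 5.21e-06), in 7 of 15 alternatives in all and in 5 of 12 fits without 1 library, over which it ranged from 0.43 to 1.04. Sema3b was not called (0.40 and 0.29). Sema3e, which signals through plexin-D1, had -0.41 (-0.93 to 0.10) and 0.33 (-0.18 to 0.85), and without the third untreated PRC1CKO replicate it would be called lower in PRC1CKO cells (-0.80, 0.0337).

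Of the membrane-bound semaphorins, Sema5a and Sema6d were higher in both lines. Sema6d (chr2:124089969-124667789, plus strand) held 67.0, 41.6 and 45.7 normalised reads in untreated PRC1CKO cells and 375, 324 and 272 after OHT. In PRC1CPM cells it went from 84.4, 86.7 and 62.4 to 442, 333 and 308. Treated and untreated libraries were well separated. Its log2 fold change was 2.65 ± 0.31 (6.28-fold, limma adjusted p = 9.27e-10) and 2.20 ± 0.31 (4.59-fold, 2.54e-07). Sema5a rose by 1.75 and 1.14. Sema6a, a ligand of plexin-A2 and plexin-A4 and the most abundant of these per kb, held 924, 597 and 295 before and 1215, 809 and 773 after OHT in PRC1CKO cells. The PRC1CPM values were 710, 1022 and 599, then 887, 895 and 692. Its groups overlapped in both lines, and 0.74 in PRC1CKO cells just missed the threshold (adjusted p = 0.0505) while PRC1CPM cells had 0.11 (-0.44 to 0.67). The Sema6a result in PRC1CKO cells is not settled. It was called in 8 of 12 fits without 1 library and 5 of 15 other alternatives, among them the replicate block (limma adjusted p = 2.90e-06). Its change ranged from 0.30 without the third untreated PRC1CKO replicate (adjusted p = 0.648) to 1.12 without the first (0.00107).

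Both neuropilins were higher in both lines. Nrp1 (chr8:128359073-128505475, plus strand), the co-receptor through which SEMA3A binds and also a co-receptor of VEGF, held 101, 64.6 and 57.5 normalised reads in untreated PRC1CKO cells and 601, 531 and 462 after OHT. PRC1CPM cells had 79.3, 26.4 and 46.1 before and 488, 248 and 405 after. The treated libraries of both lines were above all untreated ones. The change was 2.85 ± 0.33 (7.23-fold, limma adjusted p = 1.07e-09) and 2.97 ± 0.33 (7.82-fold, 1.16e-09). Nrp2, which prefers SEMA3F and is the more abundant per kb, held 1157, 582 and 469 before and 2403, 1982 and 2182 after OHT in PRC1CKO cells. For PRC1CPM cells they were 1460, 1559 and 866, then 3199, 2261 and 2164. Nrp2 libraries were separate by treatment in both lines, with changes of 1.68 ± 0.25 (5.01e-07) and 1.00 ± 0.25 (0.00309), the second of which was 0.73 (0.0875) without the third untreated PRC1CPM replicate.

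A-type plexins are the signalling partners of neuropilins. Plxna4 (chr6:32144557-32588192, minus strand) held 229, 205 and 167 normalised reads in untreated PRC1CKO cells and 704, 626 and 830 after OHT. PRC1CPM libraries had 285, 328 and 262 before and 1354, 1065 and 902 after. OHT-treated libraries were the higher ones in both lines, and the PRC1CPM libraries lay above those of PRC1CKO at either treatment. The log2 fold change was 1.84 ± 0.25 (3.59-fold, limma adjusted p = 4.97e-08) and 1.91 ± 0.25 (3.75-fold, 5.88e-08). Plxna1, the most abundant member of all in untreated cells per kb, held 11739, 7779 and 7985 before and 13574, 12694 and 11336 after OHT in PRC1CKO cells. PRC1CPM libraries held 13222, 9365 and 10482, then 16577, 11583 and 13112. Plxna1 groups overlapped, with changes of 0.47 (0.07 to 0.88, adjusted p = 0.0970) and 0.32 (-0.09 to 0.72, 0.397), and the first became a call without the first untreated PRC1CKO replicate (0.67, 0.00753). Plxna2 was called in PRC1CKO cells alone, at 0.63 (0.0337) against 0.30 (0.498), and lost the call in 6 of 12 fits without 1 library, with the highest adjusted p without the third OHT-treated PRC1CKO replicate (0.53, 0.204), and in 6 of 15 other alternatives, with 0.51 under TMM, where the fold fell below 1.5, and 0.47 (0.276) without the gDNA-seq correction.

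Netrins were represented by Ntn1, the attractant of commissural axons, and Ntn4, a netrin of basement membranes. Ntn4 (chr10:93641049-93745972, plus strand) held 113, 43.9 and 65.1 normalised reads in untreated PRC1CKO cells and 285, 182 and 154 after OHT. PRC1CPM cells had 133, 57.5 and 106 before and 305, 179 and 198 after. The treated libraries were higher than the untreated ones in both lines by narrow margins. The change was 1.53 ± 0.35 (2.88-fold, limma adjusted p = 6.46e-04) and 1.24 ± 0.35 (2.36-fold, 0.00872), the latter falling to 0.90 (0.0855) without the second untreated PRC1CPM replicate and to 1.01 (0.0866) without the first OHT-treated one. Ntn1, the more abundant per kb, held 2486, 1332 and 787 before and 2630, 1610 and 1944 after OHT in PRC1CKO cells, and 2298, 1955 and 862 before and 2772, 1730 and 1360 after in PRC1CPM cells. Untreated replicates of Ntn1 differed more from each other than the condition means did, with changes of 0.55 (-0.03 to 1.14) and 0.25 (-0.34 to 0.84). Without the first untreated PRC1CKO replicate Ntn1 was called in PRC1CKO cells (0.98, adjusted p = 0.00833).

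Netrin receptors had median log2 fold changes of 2.89 and 2.26 in the 2 lines. Dcc (chr18:71253632-72351069, minus strand), the attractive netrin receptor, held 31.3, 20.8 and 17.8 normalised reads in untreated PRC1CKO cells and 385, 355 and 277 after OHT. In PRC1CPM cells it went from 10.2, 27.3 and 6.78 to 284, 322 and 418. Every treated library was far above every untreated one, and the 3 untreated PRC1CPM libraries differed widely among themselves. The log2 fold change was 3.83 ± 0.38 (14.3-fold, limma adjusted p = 1.39e-11) in PRC1CKO and 4.64 ± 0.38 (25.0-fold, 1.75e-13) in PRC1CPM cells, the largest of any member there. Untreated libraries had 5 to 29 reads of Dcc, so the fold depends on small counts. UNC5 receptors mediate repulsion by netrins, and Unc5d and Unc5c rose by 3.17 and 2.89 in PRC1CKO and by 2.51 and 2.26 in PRC1CPM cells. Unc5b, the most abundant per kb, held 3213, 1909 and 1807 before and 6130, 4420 and 4477 after OHT in PRC1CKO cells. For PRC1CPM cells they were 3670, 2066 and 2115, then 6444, 3516 and 3777. The groups of Unc5b were apart in PRC1CKO cells (1.15, adjusted p = 1.65e-04) and overlapped in PRC1CPM cells (0.81, 0.0130), where the call was lost without the third untreated (0.68, 0.105) or the first OHT-treated replicate (0.53, 0.197). Unc5a was not called, with 0.16 (-0.40 to 0.71) and 0.28 (-0.27 to 0.84).

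Slits, the secreted ligands of ROBO receptors, were all higher in PRC1CKO cells. Slit2 (chr5:47983155-48306282, plus strand) had the largest change. It was the most abundant per kb except in untreated PRC1CPM cells (5.70, and 5.89 for Slit3). Slit2 held 2675, 2513 and 2283 normalised reads before and 5089, 5245 and 6150 after OHT in PRC1CKO cells. In PRC1CPM cells it held 2359, 1914 and 1250, then 5431, 3874 and 4242. Treated libraries exceeded untreated ones without overlap. Its log2 fold change was 1.14 ± 0.21 (2.2-fold, limma adjusted p = 3.80e-05) and 1.33 ± 0.21 (2.51-fold, 4.82e-06). Slit1 rose by 1.13 and 1.28. Slit3 was called in PRC1CKO cells (0.81, limma adjusted p = 0.00431) and not in PRC1CPM cells (0.42, 0.252). Its call was lost without the third untreated (0.60, 0.0974) or the first OHT-treated PRC1CKO replicate (0.66, 0.0652). Without the gDNA-seq correction Slit3 was called in PRC1CPM and not in PRC1CKO cells.

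Among ROBO receptors, Robo3 (chr9:37416045-37433175, minus strand), which in commissural axons holds off slit repulsion before the midline is crossed, changed most. It held 47.7, 22.3 and 44.8 normalised reads in untreated PRC1CKO cells and 317, 252 and 284 after OHT. PRC1CPM cells had 56.3, 49 and 58.3 before and 292, 145 and 285 after. The second OHT-treated PRC1CPM library was the lowest of the treated ones, but still above all untreated libraries. The change was 2.93 ± 0.34 (7.62-fold, limma adjusted p = 1.07e-09) and 2.06 ± 0.34 (4.16-fold, 7.91e-06). Robo1, the main slit receptor of many axons, had 5188, 5252 and 3880 before and 8652, 7317 and 8437 after OHT in PRC1CKO cells. The PRC1CPM libraries had 5283, 5345 and 4445, then 8632, 7485 and 8862. Robo1 libraries were separate by treatment in both lines, with changes of 0.78 (0.00198) and 0.73 (0.00547), the former at 0.62 (0.0834) without the gDNA-seq correction and the latter at 0.64 (0.0608) without the third untreated PRC1CPM replicate. Robo2 was called in PRC1CKO cells (1.30, 0.00614), though its libraries overlapped and the call was lost without the third untreated replicate (0.88, 0.155) and with DESeq2 (1.13, 0.179). In PRC1CPM cells Robo2 had 0.80 (0.164), which was a call with replicate number as a block (adjusted p = 6.70e-04).

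Over all families, 26 members (25 without Sema3g) were called higher in both lines, or 53.1% of those tested, against 11.6% of all transcripts, and none lower in both (1.08%). The 8 called in PRC1CKO cells alone were Ephb2, Efna3, Efna4, Sema3a, Sema3c, Plxna2, Slit3 and Robo2 (4.9% of all transcripts fell in that class), and Efnb1 was the 1 called in PRC1CPM cells alone (1.59%). In PRC1CPM cells, 3 of the 8 were called without the first untreated PRC1CPM replicate (Ephb2 at 0.64, Efna4 at 0.83 and Robo2 at 1.18). Sema3c was called there without the second (0.88). Without the gDNA-seq correction Ephb2, Efna3, Efna4, Sema3c and Slit3 were called in PRC1CPM and not in PRC1CKO cells. In that setting Robo2 was called in both lines and Plxna2 in neither. Being called in one line and not in the other does not show a difference between lines. The difference itself, tested as the interaction of line and treatment, was called for none of the 49 members in limma without a replicate block, where 0.0% of all transcripts were called higher and 0.0236% lower. All 49 had an adjusted p of 1.00. An unadjusted p under 0.05 was found for 4 members, against 2.93% of all transcripts. These were Sema3a, with an interaction of -1.70 (-3.12 to -0.29), Epha5 with -1.13 (-2.26 to -0.0016), Epha6 with -0.94 (-1.75 to -0.14) and Sema3e with 0.75 (0.021 to 1.48), where a negative value means a smaller rise in PRC1CPM cells. edgeR and DESeq2 on the recovered reads also called none without a block. When replicate number was added as a block, limma called 1 member higher and 4 lower, against 0.460% and 1.45% of all transcripts. The interaction was below 0 for 33 of 49 members (53.3% of all transcripts), with a median of -0.22 for members and -0.018 for all. Without the gDNA-seq correction of the spike-in both medians moved up, to 0.23 for members and 0.43 for all transcripts, and the difference between them was -0.20 with and without it.

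**Figure D3:**
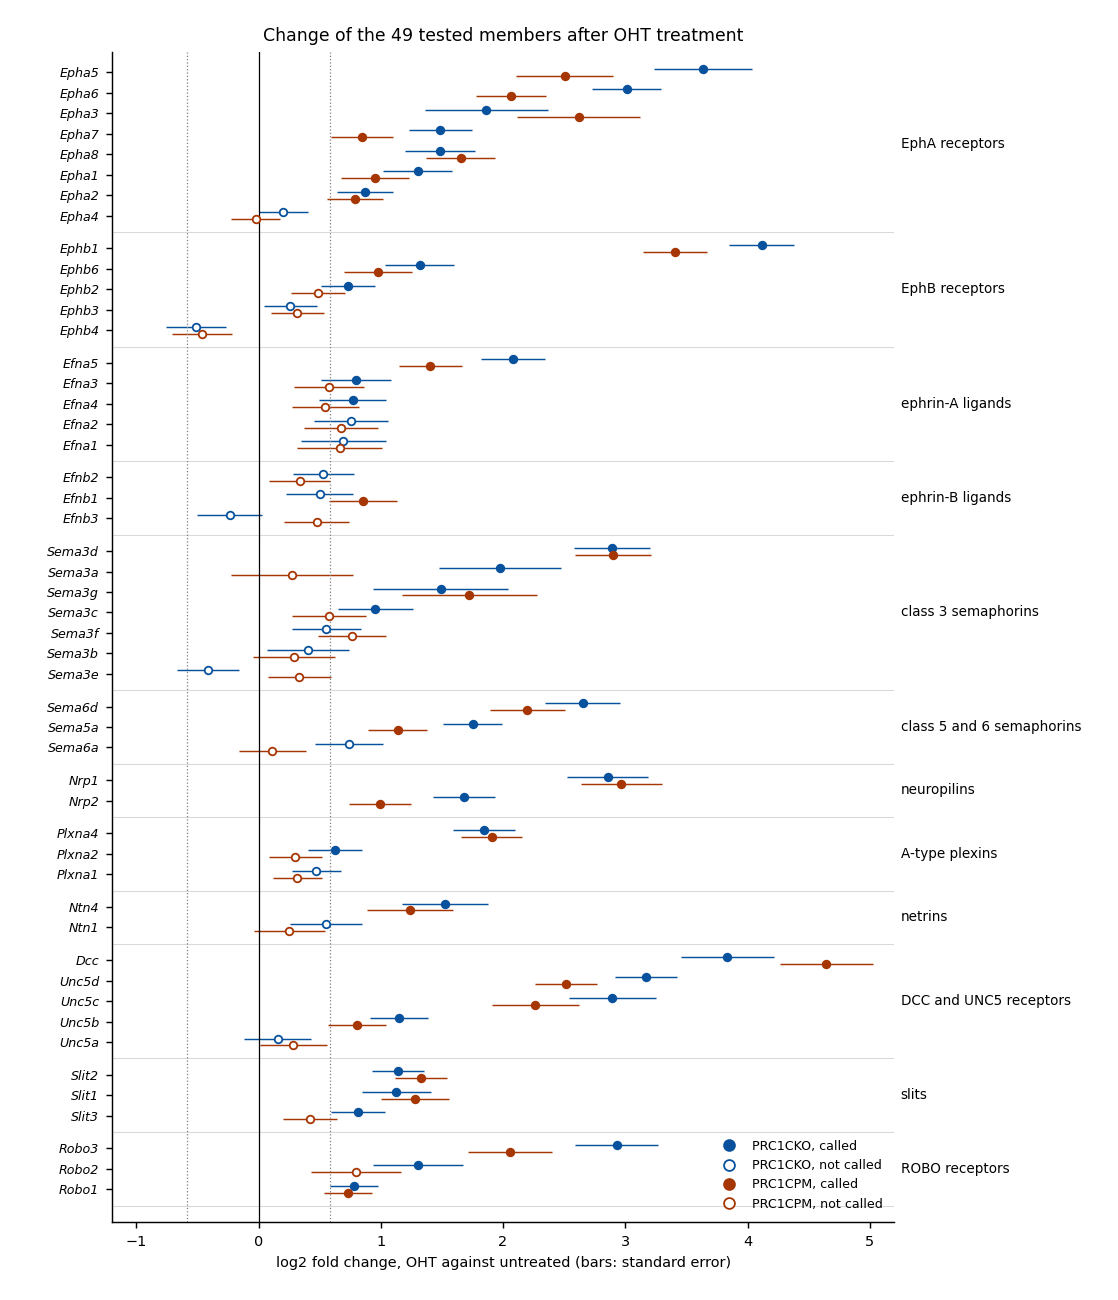
Log2 fold change after OHT of each tested member in PRC1CKO (blue) and PRC1CPM cells (brown), with bars for 1 standard error, grouped by family. Filled points were called without a replicate block, open points were not, and dotted lines mark a 1.5-fold change. Points to the right of 0 dominate in both lines, from the largest, Dcc at 4.64 and Ephb1 at 4.12, to Ephb4, the lowest at -0.51 and -0.46.

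The lines were also compared directly at each treatment. Without a replicate block, Nrp2 was the 1 member called in untreated cells. It was higher in PRC1CPM by 0.88 ± 0.25 (limma adjusted p = 0.0419), though its libraries of the 2 lines overlapped. Of all transcripts, 2.21% were called higher in that comparison and 0.478% lower. Libraries of the 2 lines did not overlap for 7 members that were higher in PRC1CPM (Ephb1, Ephb6, Sema3g, Plxna2, Plxna4, Slit3 and Robo3, against 9.23% of all transcripts) and for Epha4, which was lower (2.55%). The median difference of the members was 0.26 and that of all transcripts 0.12. After OHT, none of the 49 members was called in limma or in edgeR without the block (1.25% of all transcripts were called higher and 0.218% lower). An unadjusted p under 0.05 was found for 3 members (11% of all transcripts). Plxna4 and Efnb3 were then wholly higher in PRC1CPM libraries (11.9% of all transcripts) and Epha4, Epha6 and Sema3a wholly lower (4.35%). The median difference of the members was then -0.0060 and that of all transcripts 0.097. The 95% interval after OHT ran from 0.11 to 1.11 for Plxna4 and from 0.034 to 2.25 for Sema3g, the second of which has at most 52 reads in any library.

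Same-numbered replicates deviated together, and with replicate number as a block the direct comparisons of the lines gave more calls. In untreated cells 10 members were then higher in PRC1CPM (Nrp2, Slit3, Ephb1, Efna5, Unc5d, Efnb2, Ephb6, Unc5c, Robo2 and Sema6d) and 2 lower (Nrp1 and Dcc), where 9.63% of all transcripts were called higher and 1.49% lower. Ephb1, with 0.90 ± 0.26, had just missed the threshold without the block (limma adjusted p = 0.0502), and was at 3.74e-06 with it. After OHT, Plxna4 was higher by 0.61 (adjusted p = 0.00238 with the block) and Epha4 lower by 0.72 on the log2 scale (4.89e-06, and 0.0520 without the block), where 6.68% of all transcripts were called higher and 1.37% lower. For the interaction the block called 1 member higher (Sema3e, against 0.460% of all transcripts) and 4 lower (Efna5, Epha6, Nrp2 and Unc5d, against 1.45%), although the PRC1CKO pairs did not all reach the correlation set for pairing. Leaving out the first untreated PRC1CKO replicate, the library with the highest summed signal of the members in its group, raised the unblocked count in untreated cells from 1 to 13, as the share of all transcripts called higher rose from 2.21% to 8.81%, while leaving out the second or the third untreated PRC1CKO or the first or second untreated PRC1CPM replicate left 0, with Nrp2 at 0.61 (adjusted p = 0.425) without the third untreated PRC1CKO replicate.

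The median difference between the lines varied by chromosome. On chromosome 6, which holds Epha1, Ephb6, Plxna1 and Plxna4, the median of 852 tested transcripts was 0.31 higher in PRC1CPM in untreated cells and 0.30 after OHT. On chromosome 11, with Efnb3, Ntn1 and Slit3, the medians were 0.45 and 0.42, and on chromosome 1, with Epha4, Nrp2 and Plxna2, they were -0.10 and -0.16. How far this bears on the members' differences was not tested. Changes after OHT compare cells of the same line and do not include such an offset.

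**Figure D4:**
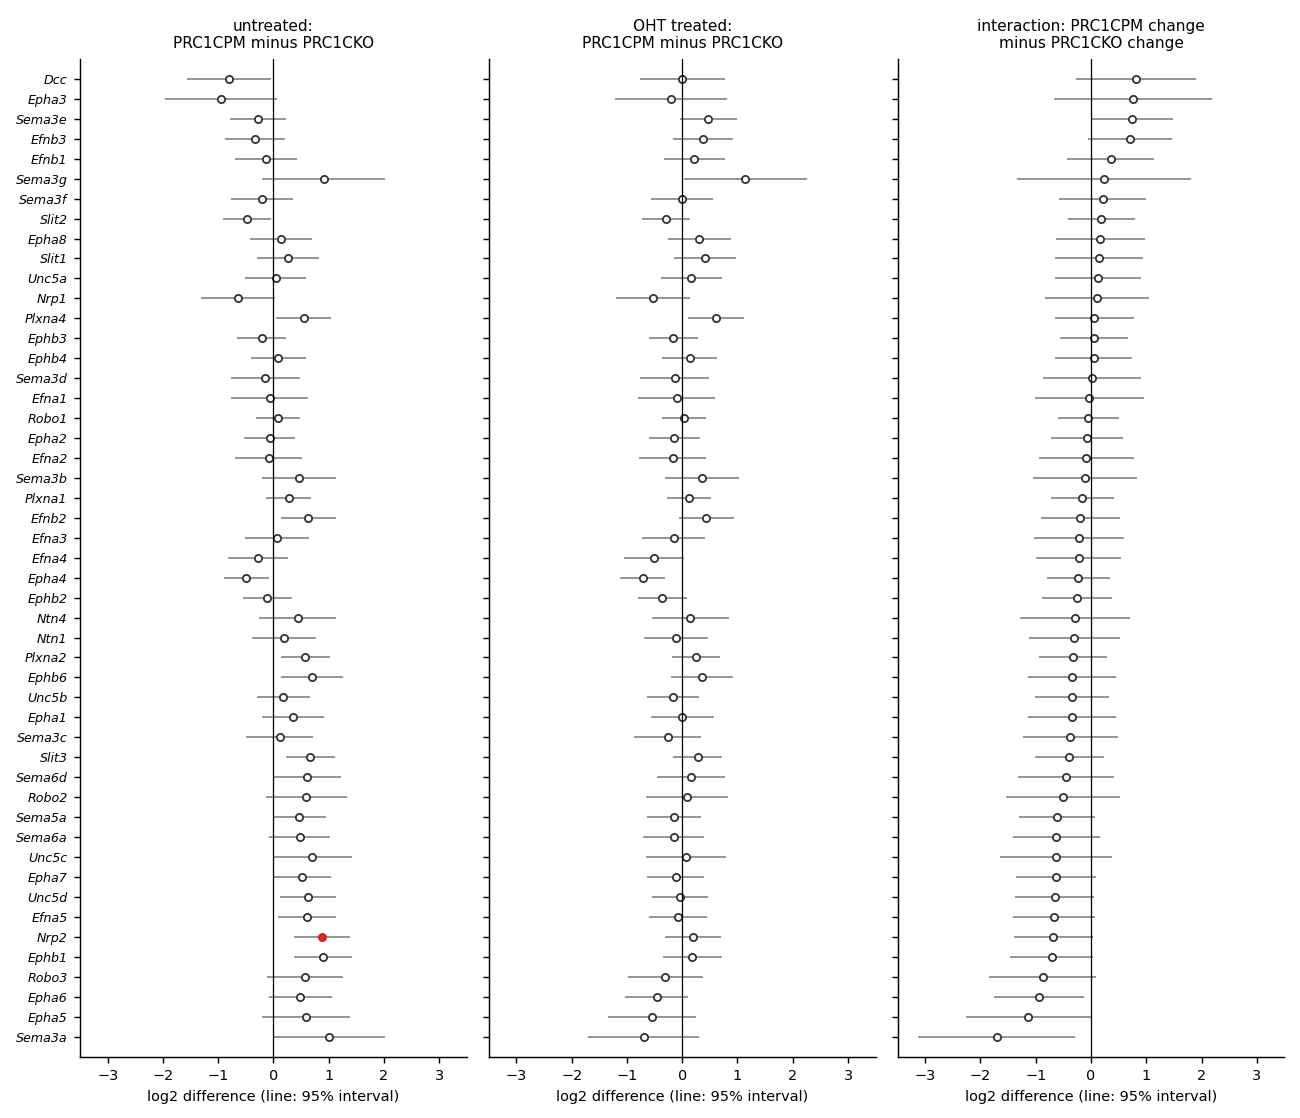
Log2 difference of PRC1CPM from PRC1CKO cells for each tested member in untreated cells (left), after OHT (middle) and as the interaction, the PRC1CPM change minus the PRC1CKO change (right), with lines for the 95% interval. The filled point is Nrp2 in untreated cells, the 1 difference called without a replicate block. Most intervals include 0, and Epha4 at -0.72 and Sema3g at 1.14 are the ends of the middle panel.

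Levels were compared between genes as normalised reads per kb of gene body, since counts over gene bodies include introns. In untreated PRC1CKO cells the order began with Plxna1 (198 per kb), Epha2 (191), Ephb3 (117), Efna4 (79.0), Ephb4 (73.9) and Epha4 (72.9), and ended with Sema3a (0.0589), Epha3 (0.0537), Epha5 (0.0459) and Dcc (0.0212). Most neighbours in this order could not be separated, as the 3 libraries of 48 of the 49 neighbouring pairs overlapped, the exception being Epha4 above Efnb3. Untreated PRC1CPM cells also began with Plxna1 (238), Epha2 (176) and Ephb3 (101) and ended with Dcc (0.0135), with 43 of 49 pairs overlapping. After OHT, Epha2 came first in both lines (338 and 313), followed by Plxna1 (271 and 297) and Ephb3 (139 and 125), and Epha2 and Plxna1 overlapped in all 4 conditions.

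OHT narrowed the range of levels from the low end. Members above 10 per kb numbered 19 in untreated and 25 in OHT-treated PRC1CKO cells, and 20 and 25 in PRC1CPM cells. Members below 1 per kb fell from 15 to 9 in both lines. The lowest level rose from 0.0212 to 0.175 per kb in PRC1CKO cells (Dcc, then Epha3) and from 0.0135 to 0.123 in PRC1CPM cells (Dcc, then Sema3a), while the highest went from 198 to 338 and from 238 to 313. Among ligands, Efna4 had the highest level per kb in untreated cells of both lines and after OHT. The top 10 depends on the length correction, as 5 of the 10 in untreated PRC1CKO cells were also in the top 10 without it, and 4 to 6 in the other conditions.

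**Figure D5:**
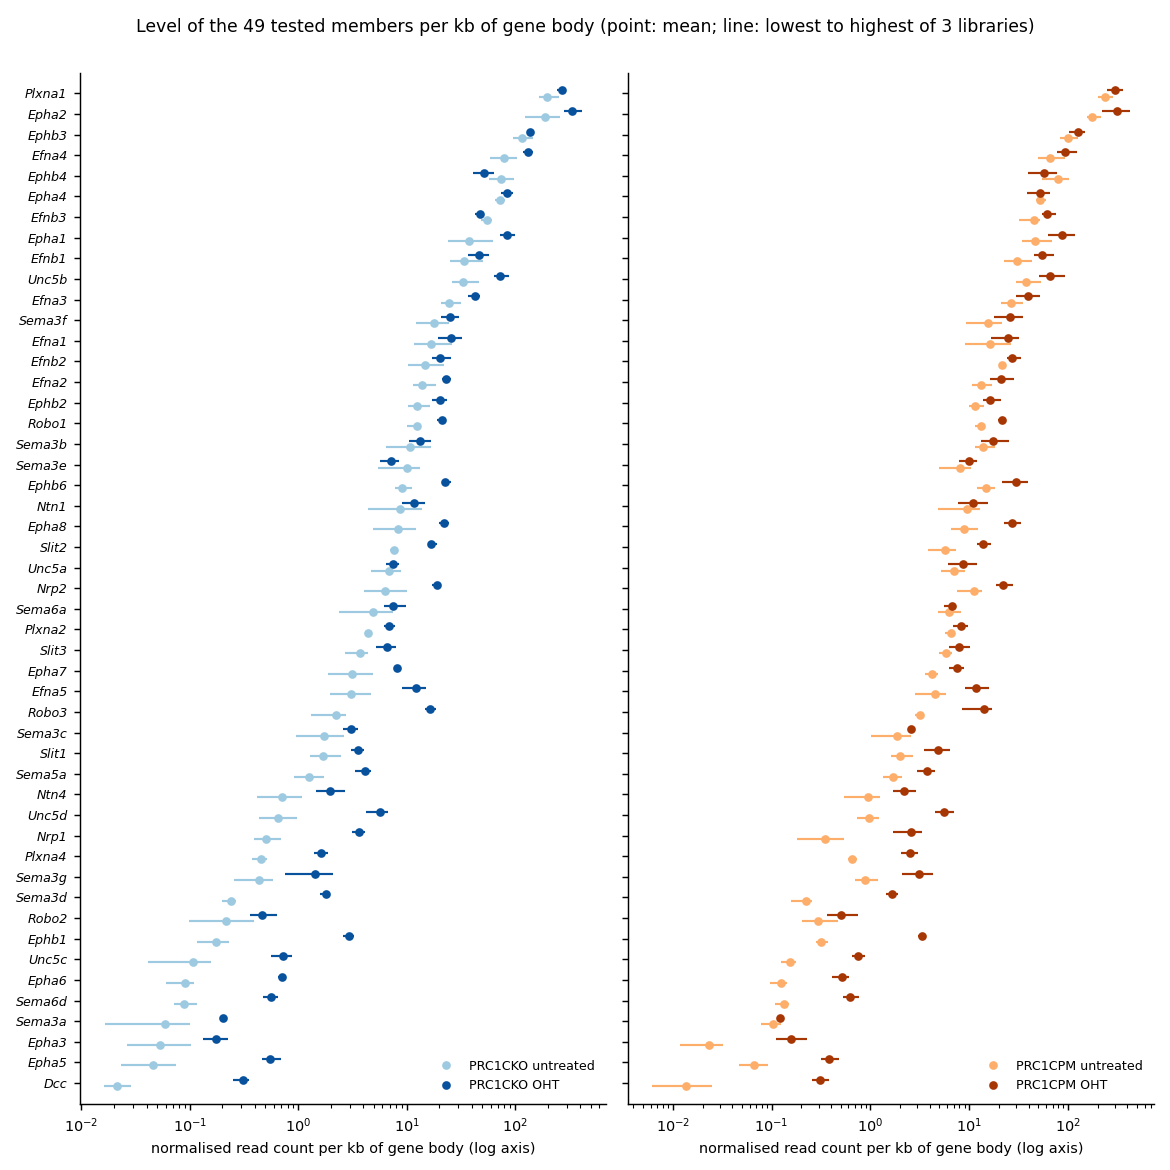
Normalised reads per kb of gene body (log axis) of the 49 tested members in the 4 conditions, PRC1CKO cells on the left and PRC1CPM cells on the right, ordered by the mean in untreated PRC1CKO cells, with a point at the mean of 3 libraries and a line from the lowest to the highest. The points of treated and untreated cells of Dcc, Epha5 and Epha3, at the bottom of the order, are far apart in both lines, while those of Sema3a there are apart in PRC1CKO cells and overlap in PRC1CPM cells.

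Members with low levels before treatment were those called most often. All 15 members below 1 per kb in untreated PRC1CKO cells were higher after OHT in that line and 13 (86.7%) in PRC1CPM cells, against 48.8% and 41.6% of the 2303 tested transcripts at such levels. Of the 34 members at or above 1 per kb, 19 (55.9%) and 14 (41.2%) were higher, against 11.4% and 8.66% of 14637 transcripts. These shares are tied to the grouping, since untreated PRC1CKO libraries enter the fold change of their own line, same-numbered untreated libraries of both lines deviated together, and OHT-treated libraries helped genes to pass the filter on low counts. Without Sema3g, which passed through treated libraries, the low group had 14 members, of which 14 and 12 were higher. Axon guidance genes are also long, with a median gene body of 146 kb for the tested members and 23.1 kb for all tested transcripts. Of the 29 members above 100 kb, 25 were higher in PRC1CKO (86.2%) and 19 in PRC1CPM cells (65.5%), where all 2398 tested transcripts of such length gave 37.7% and 30.6%. Of the 20 shorter members, 9 and 8 were higher (45.0% and 40.0%), against 12.9% and 10.3% of shorter transcripts. Of the 15 low members 14 were also above 100 kb, and 14 and 12 of these were higher, against 64.7% and 57.3% of the 796 transcripts with both properties. The limits of 1 per kb and 100 kb were chosen after values had been seen, and the shares are given as descriptions.

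Beyond the members, 64 other genes of the same pathways were all tested. In PRC1CKO cells 25 were higher and 4 lower (Ntn5, Srgap3, Enah and Mical1), or 39.1% and 6.25% against 16.5% and 3.09% of all transcripts, with a median log2 fold change of 0.45 (0.12 for all). In PRC1CPM cells 17 (26.6%) were higher and none lower, against 13.1% and 1.4%, with a median of 0.33 (0.10 for all). The 5 with the largest changes in PRC1CKO cells were Flrt2 (2.68) and Flrt1 (2.11), which encode adhesion proteins that bind UNC5 receptors, Chl1 (2.29), an L1-type adhesion co-receptor, Ntng2 (2.13), a membrane-anchored netrin G, and Mical2 (2.10), an oxidoreductase that acts on actin. In PRC1CPM cells they were Chl1 (2.26), Flrt1 (1.81), Ngef (1.48), the ephexin exchange factor that links EphA4 to RHOA, Flrt2 (1.42) and Mical2 (1.40).

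The counts of the groups within this list are given as descriptions, and differences between them were not tested. Of 14 other genes of the netrin, slit and RGM systems, 11 (78.6%) were higher in PRC1CKO and 6 (42.9%) in PRC1CPM cells. Among the same 14, 1 (7.14%) was lower in PRC1CKO cells. The 28 intracellular effectors had 8 (28.6%) and 6 (21.4%) higher, and 3 (10.7%) lower in PRC1CKO cells. Of the 6 adhesion co-receptors 3 were higher in each line, and of 6 other plexins 2 (Plxnc1 and Plxnd1). Of 10 other semaphorins 1, Sema4f, was higher in PRC1CKO cells (0.94, limma adjusted p = 0.00423) and none in PRC1CPM cells, and with 10 genes such counts are not far from the 16.5% and 13.1% of all transcripts. Their medians were 0.13 and 0.16.

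Markers of cell types that an ESC culture could contain were read in the same libraries. Their counts stand beside 16.5% higher and 3.09% lower among all tested transcripts in PRC1CKO cells, and 13.1% and 1.4% in PRC1CPM cells. Of 9 ESC markers in the table, Sox2 and Utf1 were lower after OHT in PRC1CKO cells (-0.89 and -0.79) and none was called in PRC1CPM cells, while Tdgf1 was the most abundant per kb. The summed ESC signal was 80477 ± 17634 (SD, n = 3) normalised reads before and 62077 ± 5031 after OHT in PRC1CKO cells, and 69128 ± 12283 and 64391 ± 18395 in PRC1CPM cells. Of 13 tested markers of neural progenitors and neurons, 7 were higher in PRC1CKO cells (among them Pax6, Nes and Map2) and 2 lower (Tubb3 and Stmn2), and 4 were higher in PRC1CPM cells. Their summed signal was 10596 ± 3038 before and 10722 ± 1320 after in PRC1CKO cells, and 9945 ± 1493 and 10800 ± 2681 in PRC1CPM cells, so it moved by less than its spread. Nes had the highest level per kb of this list, and the neuronal marker Dcx stayed between 0 and 12.8 normalised reads in every library.

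Summed signal of germ layer and of trophectoderm markers rose from low levels. Of all tested transcripts, 16.5% were called higher in PRC1CKO and 13.1% in PRC1CPM cells. In the mesoderm list T, Kdr and Hand1 were higher in both lines out of 5 tested, and the summed signal went from 226 ± 132 to 606 ± 118 in PRC1CKO and from 275 ± 114 to 687 ± 230 in PRC1CPM cells. Mesp1 was at 0 to 14.5 normalised reads. For endoderm, 4 of 5 tested markers were higher in PRC1CKO cells (Sox17, Gata4, Gata6 and Foxa2) and all 5, with Sox7, in PRC1CPM cells. The endoderm sum rose from 401 ± 220 to 1976 ± 358 and from 219 ± 13.9 to 844 ± 191, with Gata6 the most abundant per kb and Afp at 0 to 6.57. The trophectoderm list had 4 of its 6 markers in the table and 3 tested. Hand1 and Eomes were higher in both lines and Cdx2 in PRC1CPM cells. The sums went from 156 ± 90.3 to 427 ± 126 and from 140 ± 68.2 to 396 ± 148, with Elf5 at 0 to 15.3. Hand1 is also in the mesoderm list and had the highest level per kb of both lists, so their sums share its signal. The part of such cells in the changes of the guidance genes was not tested.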

How the data were processed

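Calibrated RNA-seq (cRNA-seq) values of 12 libraries, 3 in each of 4 conditions, were taken from 1 deposited gene table. The authors discarded ribosomal reads with Bowtie 2, aligned the rest with STAR and then Bowtie 2 to the joined mouse (mm10) and *Drosophila* (dm6) genomes, kept unique alignments, removed duplicates and counted reads over gene bodies, introns included. They divided the counts by DESeq2 size factors from the spike-in, corrected by matched gDNA-seq, so the deposited signal is a normalised read count. Whether counting used strand is not given in the sources used here, so reads of a member and of an overlapping antisense gene cannot be told apart. The table also holds the authors' own fold changes and adjusted p-values, which were not used.

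The signal of every gene came out as whole multiples of the value of 1 read (100% of values within 0.02). Tests used limma 3.58.1 (R 4.3.3) on log2(normalised count + 1), with 1 mean per condition and all 12 libraries, for transcripts that reached 10 reads in 3 or more libraries. Fold changes are on this scale, which understates changes of genes with few reads. Errors are standard errors, intervals are 95%, and p-values were Benjamini-Hochberg adjusted over all tested transcripts. On simulated counts for PRC1CKO cells, 49 of 100 transcripts with a log2 change of 1 and 91 of 100 with a change of 2 were recovered. The simulation changed few of its 16738 transcripts and held no effect shared by same-numbered replicates, so recovery in the data may differ. edgeR 4.0.16 and DESeq2 1.42.0 on the recovered reads, other scalings, filters, pseudocounts and thresholds, a replicate block and leaving out each library were tried. Replicates differed beyond counting noise, and p-values measure the spread between these cultures of 1 clone per line.

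Deviations from the condition means correlated between same-numbered libraries (mean r 0.205 over 18 pairs, lowest 0.0988, highest 0.438) and not between others (mean -0.102 over 36). Since each condition mean was subtracted, the second value follows from the first and is not separate evidence. All 3 pairs exceeded 0.1 for treated against untreated PRC1CPM cells and for the lines at each treatment, so that the numbers pair those libraries. In these comparisons only the fits with the block use the pairing. Calls and p-values given without the block leave it out. For PRC1CKO cells 1 pair fell just short, at 0.0988, though it was positive like every other same-numbered pair. By that limit no pairing was taken there or for the interaction, so this choice rests on 1 pair. Calls with the block are therefore given for these comparisons too.

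Within each family, full values are given by rule for the member with the largest called change in PRC1CKO cells and for the one with the highest level per kb. Of other pathway genes the 5 largest called changes in each line are named, and of cell type markers the most abundant and those near 0. Values of Epha4, Ephb4, Efnb1 and Sema3a, and other genes named beyond this, were chosen after they were seen. Members and gene lists were chosen with earlier results of these data known. One marker gene is not reported by name here.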

Additional observations from a re-analysis of the deposited data

How the results depend on the processing

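Without 1 library at a time, 24 to 41 members were called higher in PRC1CKO cells (24 in all 12 fits, fewest without untreated replicate 3, while 11.9% to 22.0% of all transcripts were) and 0 to 1 lower, and 18 to 32 in PRC1CPM cells (17 in all 12 fits, fewest without untreated replicate 3, with 8.53% to 15.0% of all transcripts) and 0 to 1 lower. The ranges were 0 to 0 higher and 0 to 1 lower between lines after OHT, 0 to 13 and 0 to 1 in untreated cells, and 0 to 0 in both directions for the interaction. Other pathway genes ranged over 17 to 31 higher and 0 to 4 lower in PRC1CKO, and 10 to 19 higher and 0 to 1 lower in PRC1CPM cells. Under the 15 other alternatives, 24 members in PRC1CKO and 18 in PRC1CPM cells were called each time. Without the gDNA-seq correction the medians of all transcripts were -0.037 in PRC1CKO and 0.39 in PRC1CPM cells, and 26 and 36 members were higher, with 12.6% and 20.2% of all transcripts. Without PRC1CKO untreated replicate 1 the PRC1CKO median was 0.29. Members called higher in untreated PRC1CPM cells numbered 0 with edgeR, without the gDNA-seq correction, without a filter, with a pseudocount of 0.1, above 2-fold and at an adjusted p under 0.01, 3 with TMM, with mouse read totals and with the replicate block and TMM, 10 with the replicate block and 8 with the block in edgeR. Lower there were 2 with TMM and with the block, and 3 with the block and TMM. After OHT, 1 was higher with the block in limma and in edgeR, and lower were 2 with TMM, 3 with the block and TMM, and 1 with mouse read totals, a pseudocount of 5, 1 transcript per symbol or the block in limma or edgeR. In PRC1CKO cells 1 member (Ephb4) was lower with TMM, with or without the block.

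The replicate block gave 37 members higher in PRC1CKO and 31 in PRC1CPM cells (20.3% and 17.9% of all transcripts), and for the interaction 1 higher (Sema3e) and 4 lower (Efna5, Epha6, Nrp2 and Unc5d) in limma, 1 and 4 in edgeR, and 1 lower with TMM. In PRC1CKO cells 1 of 3 same-numbered pairs had a correlation of 0.0988, just under the 0.1 set for pairing, and the other pairs exceeded it. For the paired libraries it changed no call of a member beyond those given with the results. Of other pathway genes in PRC1CPM cells 26 were higher without the gDNA-seq correction, 1 was lower with DESeq2, TMM, mouse read totals or the block (limma or edgeR) and 2 with the block and TMM. In PRC1CKO cells 2 were lower without a filter, and 1 above 2-fold or at an adjusted p under 0.01. Among single members, signs turned for values near 0. Epha4 in PRC1CPM cells was 0.0021 with edgeR and with DESeq2 and 0.27 without the gDNA-seq correction, and without 1 library it ranged from -0.21 to 0.18 (above 0 without untreated replicate 1, 0.085, and OHT replicate 2). Unc5a in PRC1CKO cells ranged from -0.099 (without untreated replicate 2) to 0.35. In PRC1CPM cells Sema6a ranged from -0.056 (without untreated replicate 3) to 0.33, Ntn1 from -0.18 (without untreated replicate 3, and -0.034 without OHT replicate 1) to 0.53, and Sema3b from -0.0085 (without OHT replicate 1) to 0.50. The cause was not tested. The block in edgeR and 1 transcript per symbol were chosen after seeing the data. Counts of 2 to 30 reads in untreated libraries limit the folds of Dcc, Epha3, Epha5, Sema3a and Sema3g.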
